A study of Mus musculus with 2 samples.

Results

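Of the 32877 H3K27ac peaks that the authors list for both libraries together, 2519 (7.66%, 95% Wilson interval 7.38 to 7.95%) had a midpoint over 1 kb and up to 2.5 kb from the nearest protein-coding transcript start. These are called band peaks here. They were chosen by position alone, on GRCm38 with the starts of GENCODE release M21, and neither the fold of a peak nor its replicate support entered the choice. The band peaks belonged to 2367 distinct starts of 2137 genes. Of these starts, 2218 had 1 band peak, 146 had 2 and 3 had 3.

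H3K27ac was profiled by chromatin immunoprecipitation and sequencing in primary macrophages grown from bone marrow of C57BL/6J mice and given no stimulus. The samples form a single group of 2 biological replicates, each begun with 10 ng of DNA. The labels name separate biosamples under a shared donor entry, so differences between animals may not be covered, and they give no genotype beyond the strain, no treatment and no usable age or sex. Read depth is not given in the labels or lists. The replicate lists held 29543 and 29345 peaks. Of 12 macrophage markers, 12 carried a peak at the promoter in each replicate, and of 25 markers of other cells 23 had none, the exceptions being the endothelial genes Cdh5 and Pecam1 with promoter folds of 18.4 and 36.3. With 1 group, classes of peaks are described with the spread of the replicates and without a test, since 2 pairs cannot bring an exact two-sided paired permutation test below 0.5.

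Acetylation of lysine 27 on histone H3 is carried by nucleosomes beside active promoters and at active enhancers. Around a transcribed start the mark typically flanks a stretch with few nucleosomes and extends further into the gene than away from it. A peak a short way from a start can therefore be the flank of the promoter's own domain, the body of a domain that runs over the start, or an element that stands apart, and the band peaks were sorted by what lay at the start. A start was called covered where the band peak itself ran over it. It was said to have a separate peak where another peak of the list overlapped the 1 kb to either side, and no other peak where neither held.

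Sequences are shown from band peaks with another peak at the start and from band peaks without, upstream and downstream, to set the letters of these regions beside those of a promoter. Each is the central 300 bases of the band peak with the highest fold of its class that lay outside exons and held a searched motif. The Dgkz peak (chr2:91965635-91965934, minus strand) lay upstream of a start with a separate peak, and Dgkz encodes a diacylglycerol kinase. The Vdac2 peak (chr14:21822979-21823278, plus strand) lay upstream of a start with no other peak, and Vdac2 encodes a channel of the outer mitochondrial membrane. The Gga1 peak (chr15:78879144-78879443, plus strand) lay in the first intron downstream of a start with a separate peak, and Gga1 encodes an adaptor of the trans-Golgi network. The Tpm4 peak (chr8:72136434-72136733, plus strand) lay in the first intron downstream of a start with no other peak, and Tpm4 encodes a tropomyosin. The last sequence is the 250 bases before the Dgkz start (chr2:91963658-91963907, minus strand). Its end farther from the start, from base 91963818 on, lies inside the Dgkz band peak, so it is not wholly apart from that peak. The Dgkz start was not the outermost of its gene, and the midpoint of the peak lay in an intron of a protein-coding gene. All were read from GRCm38 in the direction of the gene, 5′ to 3′, and capitals mark matches to any of 11 motifs searched on both strands.
Dgkz, upstream peak: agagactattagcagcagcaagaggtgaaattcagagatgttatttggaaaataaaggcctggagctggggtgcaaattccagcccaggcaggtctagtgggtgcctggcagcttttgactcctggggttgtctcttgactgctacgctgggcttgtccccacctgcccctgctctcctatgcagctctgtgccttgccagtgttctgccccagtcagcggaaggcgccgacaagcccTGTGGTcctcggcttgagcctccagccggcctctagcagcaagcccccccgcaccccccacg
Vdac2, upstream peak: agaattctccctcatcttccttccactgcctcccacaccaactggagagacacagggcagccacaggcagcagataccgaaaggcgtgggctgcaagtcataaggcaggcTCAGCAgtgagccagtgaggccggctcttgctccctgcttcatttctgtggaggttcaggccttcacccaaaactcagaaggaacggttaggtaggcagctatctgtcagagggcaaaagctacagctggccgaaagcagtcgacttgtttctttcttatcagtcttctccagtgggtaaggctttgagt
Gga1, downstream peak: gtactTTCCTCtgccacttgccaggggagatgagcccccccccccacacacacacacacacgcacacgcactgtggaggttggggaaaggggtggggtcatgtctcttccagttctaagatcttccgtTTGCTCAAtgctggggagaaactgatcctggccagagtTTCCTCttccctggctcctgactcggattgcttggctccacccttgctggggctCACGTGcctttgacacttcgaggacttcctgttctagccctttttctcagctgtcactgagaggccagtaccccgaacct
Tpm4, downstream peak: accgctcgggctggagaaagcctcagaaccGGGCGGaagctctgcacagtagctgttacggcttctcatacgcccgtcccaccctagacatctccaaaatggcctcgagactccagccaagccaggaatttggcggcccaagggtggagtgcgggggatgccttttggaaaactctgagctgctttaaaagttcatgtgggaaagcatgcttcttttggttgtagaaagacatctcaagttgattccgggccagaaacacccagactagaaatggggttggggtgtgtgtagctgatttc
Dgkz, before the start: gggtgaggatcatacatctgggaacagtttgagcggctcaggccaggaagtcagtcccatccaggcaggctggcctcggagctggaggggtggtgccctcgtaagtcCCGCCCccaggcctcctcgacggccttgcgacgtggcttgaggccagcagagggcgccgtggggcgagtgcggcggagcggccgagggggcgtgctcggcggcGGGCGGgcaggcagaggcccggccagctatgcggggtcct
The centre of the Dgkz peak held 8 CpG in 300 bases at 59.7% GC, while the 250 bases before its start held 22 CpG at 71.6% GC. The only match in that peak centre was a RUNX word, and both matches before the start were GC boxes. The Gga1 peak held the largest number of matches of the 4 peak centres, with 2 PU.1 words, a C/EBP word and a CACGTG E-box.

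Band peaks lay mostly downstream. Of the 2519, 1614 (64.1%, 62.2 to 65.9%) were inside or beyond the start in the direction of transcription and 905 (35.9%) were upstream. The list of replicate 1 placed 63.5% downstream and that of replicate 2 63.6%. In bins of 250 bp, the count of peaks fell from 527 at 1000 to 1250 bp downstream, 2 of which lay at exactly 1000 bp and so outside the band, to 141 at 2250 to 2500 bp. On the upstream side it fell from 275 in the bin that ends 1000 bp before the start to 99 in the bin that begins 2500 bp before it. Just past the outer limit the next bins held 139 peaks downstream and 111 upstream. Downstream counts were thus above upstream counts at matched distance in every bin of the band, and the side difference was widest next to the inner limit. With distance measured from the nearest edge of a peak instead of its midpoint, 54.3% lay downstream.

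**Figure D1:**
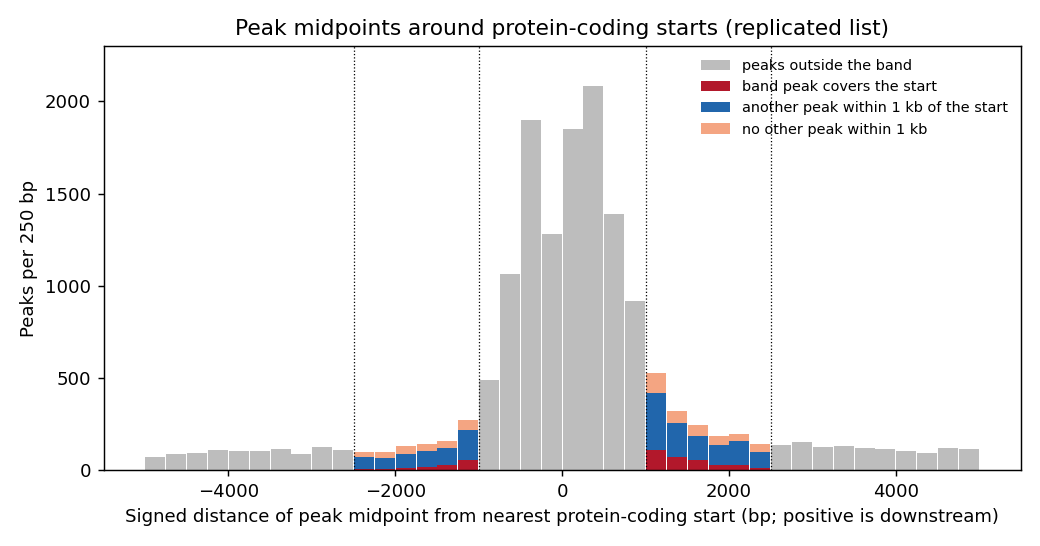
Number of peaks of the list made from both libraries per 250 bp (vertical axis) by signed distance of the peak midpoint from the nearest protein-coding start (horizontal axis, bp, positive downstream), with dotted lines at the limits of 1000 and 2500 bp. Colours inside the limits show what lay at the start, and the band sits on the slope between the promoter mass and the flat level outside, with 275 peaks in its innermost bin upstream and 527 in the matching bin downstream, where 2 at exactly 1000 bp are outside the band.

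Downstream band peaks lay mostly in the first intron and upstream ones mostly between genes. Of the downstream peaks, 77.4% (75.3 to 79.4%) had their midpoint in intron 1 of a transcript from that start, and 9.98% in intron 2. Exons held few of them, 3.41% in exon 1 and 2.17% in exon 2. Where transcripts from a start differed, intron 1 was taken first, then exon 1, intron 2 and exon 2, which favours intron 1. The share of all positions at these distances that lie in introns or between genes was not counted, so no enrichment is claimed. Over all band peaks the midpoint was in an intron of some gene for 68.6%, between genes for 24.97%, in a UTR exon for 3.81% and in a coding exon for 2.66%. Of the upstream peaks, 66.9% lay between genes and 30.2% in an intron. The start in question was the 5′ end of the gene for 75.5% of upstream peaks and for 39.2% of downstream peaks, so most downstream peaks were assigned to a start other than the gene's outermost. Where starts of a gene lie close together, taking the nearest gives the outermost to a peak upstream of them and the innermost to a peak downstream. The part of this rule in the difference was not tested. A start of a long noncoding RNA lay within 1 kb of the midpoint for 5.52% of band peaks, beside 11.7% of peaks within 1 kb of a protein-coding start and 2.89% of those 2.5 to 10 kb away. A start of a transcript that is not annotated as coding but belongs to a protein-coding gene lay that near for 11.2% of band peaks.

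The peak summit, the position of highest signal within a peak, was often nearer to the start than the midpoint. It lay within 1 kb of the start for 36.5% of band peaks (34.7 to 38.4%), which includes 63.5% of those that covered the start, 34.6% of those with a separate peak and 22.3% of the rest. Counted in the direction of transcription, the summit lay at a median of -190.5 bp from the midpoint in downstream peaks and of 38 bp in upstream peaks, in both cases toward the start. With no other peak at the start the medians were -77 bp downstream, toward the start, and -17 bp upstream, away from it. Where the edge of such a peak also stayed beyond 1 kb, they were 14 bp downstream and -18.5 bp upstream, both away from the start. Chosen by summit instead of midpoint, 5.23% of the list fell in the band.

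At 1490 band peaks (59.2%, 57.2 to 61.1%) the start had a separate peak, at 427 (17.0%) the band peak covered the start, and at 602 (23.9%) there was no other peak. The replicate lists gave a separate peak to 61.2 and 58.7% of their own band peaks, a mean of 59.95% ± 1.84 (SD, n = 2). Upstream and downstream peaks split in similar ways. A separate peak was present for 60.2% of upstream and 58.6% of downstream peaks, and intervals of 57.0 to 63.4% and 56.1 to 60.9% overlap. Covering was more frequent downstream, at 19.0% against 13.3%, and the replicate lists gave 15.4 and 18.5% downstream against 9.73 and 11.1% upstream, so their ranges do not overlap.

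Band peaks that covered the start formed the broadest and highest class. Their median width was 4152 bp and their median fold 22.9, at percentile 92.0 of the list. A peak whose midpoint is over 1 kb from the start can reach it only when wider than 2 kb, so the width of this class follows from its definition, and the narrowest was 2031 bp. Of these peaks, 59.7% (55.0 to 64.3%) were among the upper 10% of the list by fold, beside 12.9% of band peaks with a separate peak and 6.15% of those without another peak. The background in the whole list was 10.0%, and 19.2% of all band peaks were in that upper share. The shares were not matched for width, whose median was 1277.5 bp with a separate peak and 1204.5 bp with no other peak. The part of width in the high folds of covering peaks was not tested.

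The highest of the covering peaks included those of genes known for their part in macrophages. Downstream of the start, the peak at Spi1, which encodes the lineage factor PU.1, spanned 8688 bp and had a fold of 54.9, with 50.8 in replicate 1 and 50.3 in replicate 2. Laptm5, a lysosomal membrane protein of blood cells, had a peak of 10739 bp and fold 53.2, with 50.2 and 48.8 in the replicates. Trem2, a lipid-sensing surface receptor, had a fold of 52.9, with 49.1 and 48.8 in the replicates. Arhgap30, a GTPase activating protein, had a fold of 52.4, with 45.3 and 50.8. The lowest of these replicate folds was 45.3, so all 4 peaks were high in both libraries. Spi1 had another covering peak at an internal start, of 4009 bp and fold 44.7. The starts used at Laptm5 and Trem2 were also internal, and the summit of the Laptm5 peak lay at -2239 bp, upstream of its start. Several genes named below had band peaks at internal starts too, Capg, Cd68 and Il4ra among them. Internal means only that the start was not the outermost protein-coding start of the gene, and it can lie close to that start. The Cd68 covering peak (chr11:69661334-69667393), assigned to the start at 69666062, also ran over the outermost start at 69666153.

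Upstream covering peaks included that of Siglec1, the macrophage receptor sialoadhesin, with a width of 7152 bp and a fold of 50.6, and 46.3 and 48.1 in the replicates. Ftl1, the ferritin light chain, had a fold of 50.5, with 46.5 and 46.9. Actb, cytoplasmic beta-actin, had a fold of 49.0, with 44.7 and 45.2. All of these were in the upper 10% of each replicate list, as of the list made from both.

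Where the start had a separate peak, the band peak and its nearest neighbour lay close together. The median gap between their edges was 377 bp (interquartile range 187 to 728 bp), and it was under 500 bp for 60.3% and under 250 bp for 35.1%. Pairs were counted per band peak, so a pair whose members are both band peaks, as at Mfsd12, can be counted for each of them. Counted so, a single peak in a replicate list spanned both members at 5 pairs in replicate 1 and 47 in replicate 2. None was joined in both, so 3.49% of the pairs were joined in either replicate. Joined pairs were concentrated at gaps under 100 bp, where 40 of 153 (26.1%, 19.8 to 33.6%) were joined. The band peak had the higher fold of the pair at 42.9% and was the wider at 57.4%, with pairs of band peaks counted from both members.

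The separate peaks took up several arrangements around the start. At 643 of the 1490 (43.2%, 40.7 to 45.7%) all other peaks lay on the opposite side of the start and none ran over it, so that the start sat in a gap between peaks. At 536 (36.0%) another peak covered the start, at 195 (13.1%) other peaks lay on both sides, and at 116 (7.79%) they lay on the same side, between the band peak and the start. In the replicate lists the gap arrangement made up 41.3 and 40.1% of band peaks with a separate peak.

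Band peaks beside a start in a gap had the highest median fold of these arrangements, though single high peaks stood in others too. Their median fold was 12.5, at percentile 76.5 of the list, and their median width was 1921 bp, while the medians of the other arrangements were at percentiles 39.0 (another peak over the start), 35.0 (same side) and 30.6 (both sides). Ranked within the replicate lists, the medians were 76.6 and 75.9 for the gap arrangement, and those of the other arrangements were at most 39.0 in either replicate. In those other arrangements another peak lies over the start or nearer to it, which limits how far the band peak can extend toward it. The peak-free stretch over the start in the gap arrangement had a median length of 574 bp (interquartile range 321.5 to 921 bp). The median GC content of the 1000 bp around the start was 66.4% there, 64.8% with other peaks on both sides, 60.55% with other peaks on the same side and 56.7% where another peak covered the start.

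Mfsd12, a lysosomal membrane transporter, showed this arrangement with band peaks of nearly equal height. Its upstream peak had a fold of 44.7 and ended 68 bp before the start, and its downstream peak had a fold of 44.6 and began 208 bp after it. In replicate 1 the folds were 39.9 upstream and 42.5 downstream, and in replicate 2 they were 42.7 and 39.6, so the order of the sides changed between replicates. Plxnb2, a plexin receptor for semaphorins, was uneven, with 20.2 upstream and 49.8 downstream, and the replicates gave 18.6 and 19.8 upstream and 47.3 and 44.6 downstream. Insig1, a sterol-responsive retention factor of the endoplasmic reticulum, had 39.4 upstream and 25.8 downstream, with 37.3 and 35.5 upstream and 24.8 and 22.8 downstream in the replicates. The unevenness at Plxnb2 and Insig1 exceeded the spread of the replicates.

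In all, 86 starts had band peaks on both sides. Of these, 61 had a separate peak as defined, 24 were covered by a band peak and 1 had no listed peak within 1 kb. The separate peak need not be a further peak, since it can be the band peak across the start, as at Mfsd12 and Plxnb2. Zbtb34 was among the 61 although its upstream band peak had no other peak at the start. At Jun, an AP-1 subunit, the upstream peak had a fold of 37.8, with 36.5 and 34.2 in the replicates. The downstream peak, which ran over the start, had a fold of 31.3, with 26.8 and 30.7. The upstream peak was higher in both replicates. The start with no listed peak within 1 kb was an internal start of Arid1a, a subunit of the BAF remodelling complex, with 79.0% GC around it. Its downstream peak with a fold of 9.74 was found in both replicates, at 8.26 and 9.89, and its other 2 band peaks, at 3.80 and 3.29, overlapped no replicate peak.

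Other high peaks beside a separate peak included upstream ones at Wdfy3, a scaffold of selective autophagy, with a fold of 53.8 and 48.9 and 50.3 in the replicates. Ssbp4, a partner of LIM-domain cofactors, had 47.5, with 43.5 and 44.4. Dgkz had 46.4, with 40.4 and 39.3. Spag9, a scaffold of JNK signalling, had 45.6, with 41.8 and 42.4. The peaks across the start from them were low, at 5.75 for Wdfy3, 5.57 for Dgkz and 4.36 for Spag9, while the neighbour at Ssbp4 had 27.7. Downstream, Gga1 had 44.9, with 41.8 and 41.4, beside a neighbour of 20.2. Rnpep, an aminopeptidase, had 44.2, with 41.6 and 39.9, beside a neighbour of 6.59.

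The 602 band peaks with no other peak at the start had a median fold of 6.22, at percentile 49.7 of the list, beside 7.31 and 56.6 for those with a separate peak. The replicate lists did not give these classes the same order, with medians at percentiles 53.6 and 49.0 for no other peak and 53.1 and 53.3 for a separate peak. Upstream members were at percentile 40.9 and downstream members at 52.0. Ranked in the replicate lists, however, upstream members were at 53.1 and 45.6 and downstream ones at 54.3 and 52.7, so the side difference of 1.2 in replicate 1 was smaller than the spread between replicates. The class was mixed in how near the peak came to the start. Of these peaks, 358 reached into the 1 kb window with their own edge with a median fold of 8.85, and the other 244 stayed outside it, with a median fold of 3.99 over 752.5 bp of median width. Only the latter left the window free of any listed peak, and they split into 114 upstream and 130 downstream.

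Anpep, aminopeptidase N, was the highest peak without another peak at the start, with a fold of 52.4 and 47.1 and 49.1 in the replicates, over 4179 bp that began 153 bp downstream of the start. Tpm4 followed at 38.5, with 35.8 and 31.0, and Rap2b, a small GTPase, at 36.8, with 37.0 and 33.7. Pde4a, a cyclic AMP phosphodiesterase, had 35.0, with 33.4 and 34.2, and began 1096 bp from the start, so it alone of these 4 left the window free. Upstream, Vdac2 had 37.8, with 34.8 and 34.9. Zbtb34 and Zcchc2, which encode zinc finger proteins, had 30.7 and 30.1, and Tmem211, which encodes a transmembrane protein, had 26.6.

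Over all band peaks the median width was 1553 bp, the median fold 8.89 and the median percentile 64.7. Peaks within 1 kb of a start had 822 bp, 7.28 and percentile 56.6, and those 2.5 to 10 kb away had 1137 bp, 5.47 and 43.2. Within the replicate lists the median percentile of the band was 61.7 and 62.7, that of peaks within 1 kb was 54.3 and 55.3, and that of peaks 2.5 to 10 kb away was 44.8 in both. The order held in both replicates. The percentile of the band itself depended on the covering peaks and on the use of midpoints. Without covering peaks the band was at percentile 54.6, and chosen by summit it was at 46.8. Chosen by the nearest edge it was at 35.9 with a median width of 965 bp. The nearer and the more distant peaks were not redefined in these ways, so the order under these choices was not tested. Downstream peaks were at percentile 66.4 and upstream ones at 59.5, and the replicates gave 61.7 and 64.4 downstream and 60.7 and 58.3 upstream.

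**Figure D2:**
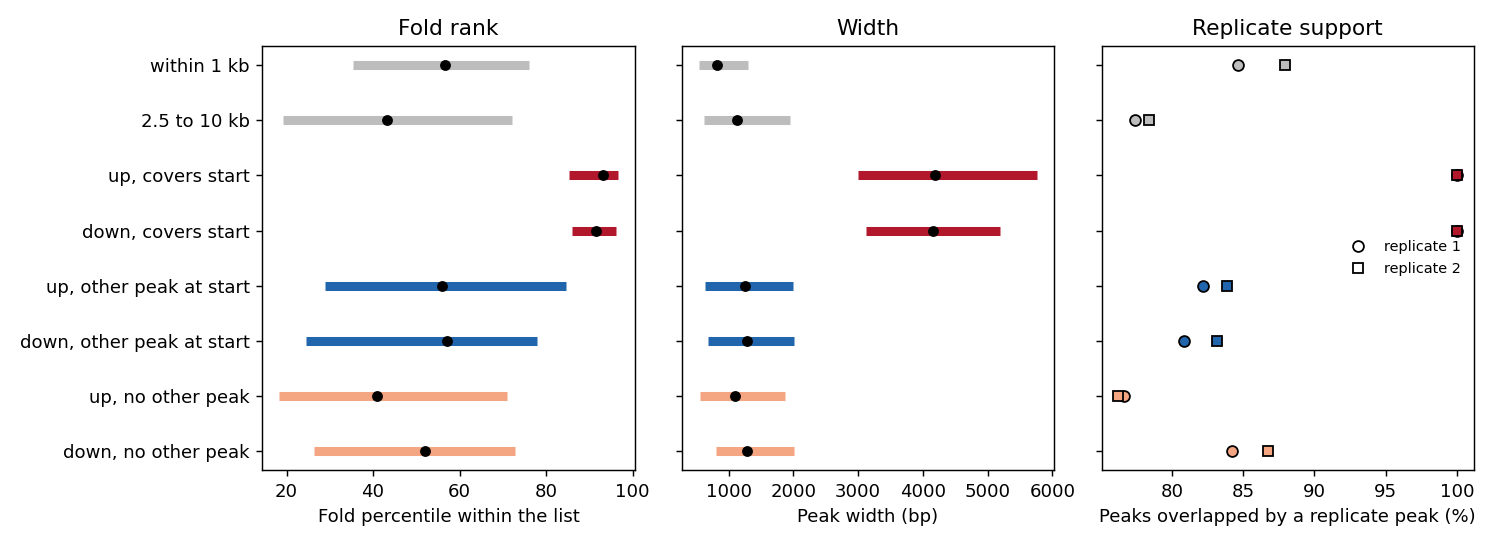
Fold percentile within the list (left, points are medians and bars interquartile ranges over peaks), peak width in bp (middle, same marks) and the percentage of peaks overlapped by a peak of each replicate (right, axis from about 75 to 100%), for peaks within 1 kb and 2.5 to 10 kb of a start and for band peaks by side and by what lay at the start. Covering peaks stand at medians near percentile 92 and widths near 4 kb with 100% overlap in both replicates, and upstream peaks with no other peak have the lowest overlap, 76.7 and 76.3%.

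Support by the replicates followed height. Of the band peaks, 2015 (80.0%, 78.4 to 81.5%) were overlapped by a peak of both replicates, beside a background of 74.5% in the whole list, 80.3% of peaks within 1 kb and 70.5% of those 2.5 to 10 kb away. Replicate 1 alone overlapped 113, replicate 2 alone 152 and neither 239. Replicate 1 overlapped 84.5% of the band and replicate 2 86.0%, a mean of 85.3% ± 1.09 (SD, n = 2). Support in both was 100% for covering peaks, 76.2% with a separate peak and 75.2% with no other peak. Without the covering peaks it was 75.9%, near the background, and with a band chosen by the nearest edge it was 64.7%. An overlap of 1 bp was enough, covering peaks were at least 2031 bp wide, and the replicate lists came from the same libraries as the list. The parts of height and width in support were not told apart.

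Within the class with no other peak, support differed by side. It was 67.1% upstream and 80.7% downstream, and replicate 1 overlapped 76.7 and 84.3% and replicate 2 76.3 and 86.7% of the respective peaks. The side difference was larger than the spread between replicates. Peaks of this class that reached into the window were supported in both at 89.7%.

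Unsupported band peaks were low and narrow. Peaks overlapped in both replicates were a median of 1909 bp wide with a median fold of 11.6, those in replicate 1 alone 603 bp and 3.46, those in replicate 2 alone 581.5 bp and 3.43, and those in neither 444 bp and 2.88. The highest peak found in replicate 1 alone lay upstream of Cirbp, a cold-inducible RNA-binding protein, with 5.94, and the highest in replicate 2 alone lay downstream of a Crybg1 start, with 5.75. Over the 2015 peaks overlapped in both, the replicate folds were correlated at 0.95 by Spearman and, on the log2 scale, at 0.95 by Pearson, across peaks that share the libraries. The midpoints of the replicate peaks differed by a median of 85 bp. The replicate peak itself had its midpoint in the band at 85.5% in replicate 1 and 86.3% in replicate 2, and most of the others moved to within 1 kb.

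**Figure D3:**
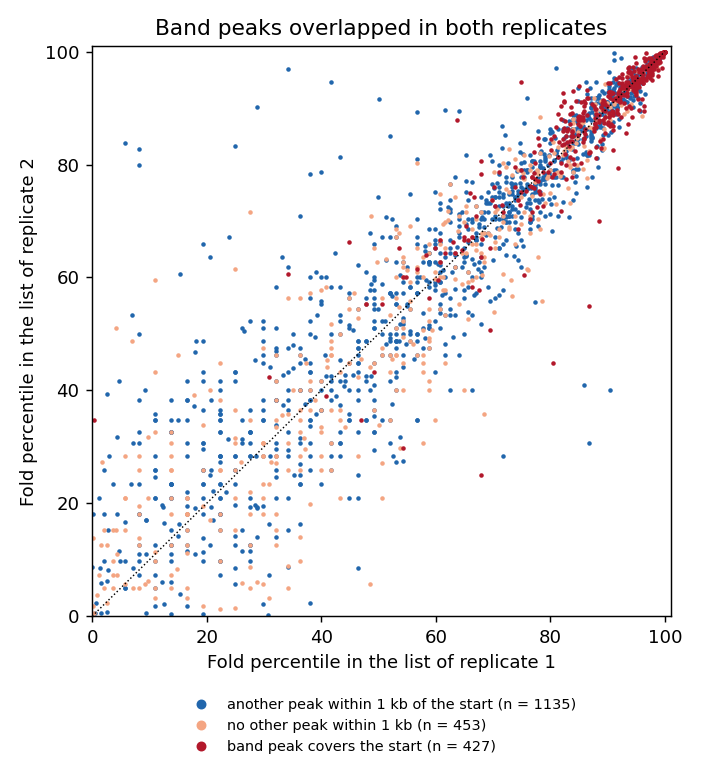
Fold percentile of each band peak in the list of replicate 1 (horizontal axis, percent) and in that of replicate 2 (vertical axis, percent), for the 2015 band peaks overlapped in both, coloured by what lay at the start, with a dotted line of equality. Covering peaks crowd the upper right corner, and the scatter widens toward low percentiles.

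The limits of the band divide a continuous range of distances. Just inside the inner limit, at 1001 bp, lay peaks of Clint1, a clathrin adaptor, and Ggnbp2, a zinc finger protein, with folds of 11.7 and 21.5. Just outside it, at 1000 bp, lay peaks of Iqgap1, an actin-binding scaffold, and Adam9, a membrane metalloprotease, with 13.0 and 12.4. At the outer limit, the peaks inside were those of Clcn7, a lysosomal chloride transporter, at 2500 bp with a fold of 4.22, and Qk, an RNA-binding protein, at 2497 bp with 2.89. The peaks outside were those of Stx2, a syntaxin, at -2503 bp (upstream) with 16.1, and Glipr2, a Golgi-associated protein, at 2504 bp with 9.74.

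The base composition of the start, which the sorting did not use, varied with what lay there. A start was called CpG-rich where the surrounding 1000 bp had at least 50% GC and an observed to expected CpG ratio of at least 0.6. Counted per band peak, so that a start with several counts more than once, the start was CpG-rich for 76.4% (74.2 to 78.5%) of band peaks with a separate peak, 40.05% (35.5 to 44.8%) of covering peaks and 39.0% (35.2 to 43.0%) of those with no other peak. Among peaks within 1 kb the share was 72.8%, and among those 2.5 to 10 kb away it was 45.9%. With a separate peak the share was 79.7% for downstream and 70.8% for upstream peaks, and with no other peak it was 47.5 and 26.2%. The intervals of the separate class and of the other classes do not overlap, though starts are not independent samples of a condition and no test was made.

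The band peaks themselves lay outside CpG-rich sequence. By the same thresholds on the central 300 bp, 3.73% of band peaks were CpG-rich, beside 28.1% of peaks within 1 kb and 1.38% of those 2.5 to 10 kb away. The median observed to expected CpG ratio was 0.238 in the band, 0.517 within 1 kb and 0.190 further out. The median GC content was 47.3% in the band and 52.0% within 1 kb.

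Motifs were counted as exact letters on either strand in the central 300 bp. The 11 words were GAGGAA (PU.1), TGANTCA (AP-1), TTGCNNAA (C/EBP), TGTGGT (RUNX), CACGTG (E-box), GGGCGG (the GC box of SP and KLF factors), CCGGAAG (ETS), TGCTGA (MAF) and the longer words of NRF1, IRF and CTCF. The GC box was present in 8.85% of band peaks (7.81 to 10.0%), 23.3% of peaks within 1 kb, 6.28% of those 2.5 to 10 kb away and 43.9% of windows of the same length at all protein-coding starts. The ETS word CCGGAAG was present in 2.78, 7.07, 2.21 and 10.6%, in the same order. For both words the band stood near the more distant peaks and well below the starts. AP-1 was present in 10.6, 6.86, 13.4 and 5.99%, RUNX in 21.3, 15.8, 24.1 and 14.8%, and the MAF word in 22.6, 17.8, 24.7 and 19.0%, where the band stood between the nearer and the more distant peaks. The PU.1 word was present in 31.6, 28.8, 35.8 and 27.6%, and within the band in 35.5% (32.4 to 38.6%) of upstream and 29.4% of downstream peaks. C/EBP was present in 13.5, 11.7, 13.0 and 8.46%, IRF in 5.28, 4.66, 5.86 and 3.05%, and the E-box in 4.92, 5.68, 4.75 and 6.92%. The NRF1 word was found in 1 band peak and the CTCF word in 5. GGGCGG and CCGGAAG consist mostly of G and C, GC content differs between these classes, and its part in the shares was not tested.

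**Figure D4:**
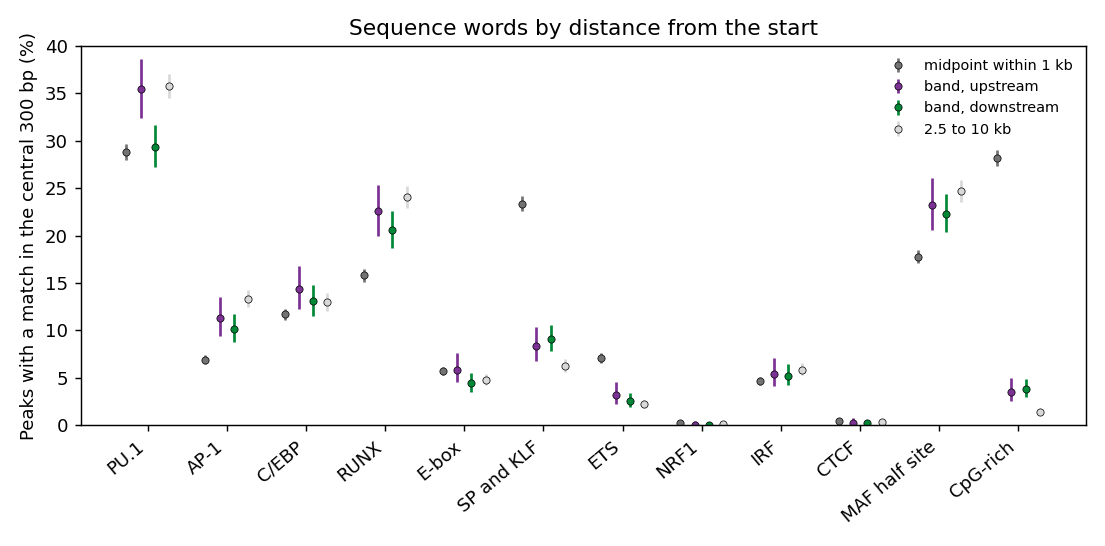
Percentage of peaks with each sequence word, or with CpG-rich sequence, in the central 300 bp (vertical axis), for peaks within 1 kb of a start, band peaks upstream and downstream, and peaks 2.5 to 10 kb away. Points are shares and bars 95% Wilson intervals, and the SP and KLF word and CpG-rich sequence drop from 23.3 and 28.1% within 1 kb to 8.85 and 3.73% in the band as a whole.

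Of all protein-coding genes, 9.78% were the nearest gene of a band peak. A promoter peak was present at 43.0% of genes, and of these 21.4% had a band peak. Of 297 genes in 10 lists of macrophage functions, 102 (34.3%, 29.2 to 39.9%) had a band peak. Of 60 housekeeping and cell cycle genes it was 18 (30.0%, 19.9 to 42.5%), and of 133 markers of other cells 9 (6.77%, 3.60 to 12.4%). A promoter peak was present at 88.2% of the macrophage genes and at 15.8% of the markers of other cells. Among genes with a promoter peak the shares with a band peak were 37.8% for the macrophage lists, 30.0% for the general lists and 33.3% for the 21 markers of other cells that had one. The lists were set against all genes by their counts alone, with no adjustment for the number of annotated starts.

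Transcription factors of myeloid cells were the list with the largest share, 24 of 35 (68.6%, 52.0 to 81.4%). They carried 31 band peaks, 27 of which were supported in both replicates, and 21 of which had a separate peak at the start. Over all band peaks these shares were 80.0 and 59.2%. The median of the 31 was at percentile 83.7 of the list. Their median number of starts per gene was 3, beside 2 for all genes. Next to Spi1, the C/EBP family factors Cebpa and Cebpb had downstream peaks with folds of 7.42 and 15.9, and Cebpd had 34.0. Runx1, a regulator of blood lineages, had a covering peak of 27.8, and Irf5, an inflammatory interferon regulatory factor, had an upstream peak of 24.8. Cebpb, Cebpd, Runx1 and Irf5 were singled out after their values were seen.

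Cholesterol and lipid genes had band peaks at 12 of 25 (48.0%), with a median of 4 starts per gene. Insig1 led the list. Actin and phagocytosis genes had band peaks at 17 of 35 (48.6%), led by Actb and by Capg, an actin capping protein, whose covering peak had 48.6, with 45.6 and 45.8. Of the 19 band peaks of that list, 19 were supported in both replicates, beside 80.0% of all band peaks. The 19 were high, with a median at percentile 88.1, and 6 of them covered the start, a class with 100% support.

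Genes of the rapid inflammatory response, such as immediate early factors, had band peaks at 14 of 35 in these unstimulated cells. Those of the delayed response had one at 1 of 24, and only 5 of these 24 had a promoter peak. The exception was Ccl7, a monocyte chemokine, with a covering peak of 22.6 and 16.9 and 19.7 in the replicates. Lysosome genes had band peaks at 13 of 35 (37.1%), led by Ctsz, a cathepsin, at 40.9, with 38.5 and 39.2. Grn, the progranulin gene, had a covering peak of 39.2, with 39.5 and 45.9. The Ctsz peak lay 64 bp from its neighbour, and replicate 2 joined the pair.

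Macrophage identity genes had band peaks at 11 of 29 (37.9%), and 8 of their 14 band peaks covered the start. Over all band peaks, 427 of 2519 (17.0%) did so. Cd68, an endosomal glycoprotein, had a covering peak of 48.1, with 46.5 and 45.3. Lyz2, lysozyme, had a covering peak of 12382 bp and fold 22.9, with 26.9 and 22.4. NF-kB and pattern recognition genes had band peaks at 8 of 38 (21.1%), led by Rel, an NF-kB subunit, at 22.5, and Tlr8, an endosomal receptor for RNA, at 17.4. The share in genes with a promoter peak was 21.6%, near the 21.4% of all such genes.

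Interferon-stimulated genes had band peaks at 5 of 33 (15.2%, 6.65 to 30.9%), an interval that holds the share of all genes. A promoter peak was present at 32 of 33, and of these 15.6% had a band peak, beside 21.4% of all such genes. Their band peaks were low, with a median at percentile 8.46 of the list. Trim25, an E3 ligase of antiviral sensing, had a covering peak of 31.4, with 29.3 and 30.7, and alone of the 5 was supported in both replicates. Over all band peaks the share with such support was 80.0%. Stat2, a transducer of type I interferon signals, had 3.90 and was found in replicate 2 alone. Interleukin-4 response genes had band peaks at 4 of 17 (23.5%), led by Il4ra, the receptor subunit, at 29.4, and Pdcd1lg2, an inhibitory ligand, at 17.4, 2489 bp upstream of a start.

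Housekeeping genes had band peaks at 8 of 30 (26.7%) and cell cycle genes at 10 of 30 (33.3%). Among the latter, Birc5, which encodes survivin, had an upstream peak of 25.5, with 23.7 and 24.4, and Cdkn1b, the inhibitor p27, had a covering peak of 21.6, with 21.2 and 19.8. Markers of other cells had band peaks that were mostly low. Il7r, the interleukin-7 receptor, had 20.9, with 20.8 and 18.3, and Prtn3, a granule protease of the neutrophil lineage, had 15.1, with 15.7 and 12.7. Apoa2, an apolipoprotein, had 6.77, Lck, a T cell kinase, 4.82, Nfe2, an erythroid and megakaryocyte factor, 4.36, and the endothelial genes Pecam1 and Egfl7 3.44 and 2.97. Meis1, a stem cell factor, had 3.25. Whether other cells contributed to these peaks was not tested.

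**Figure D5:**
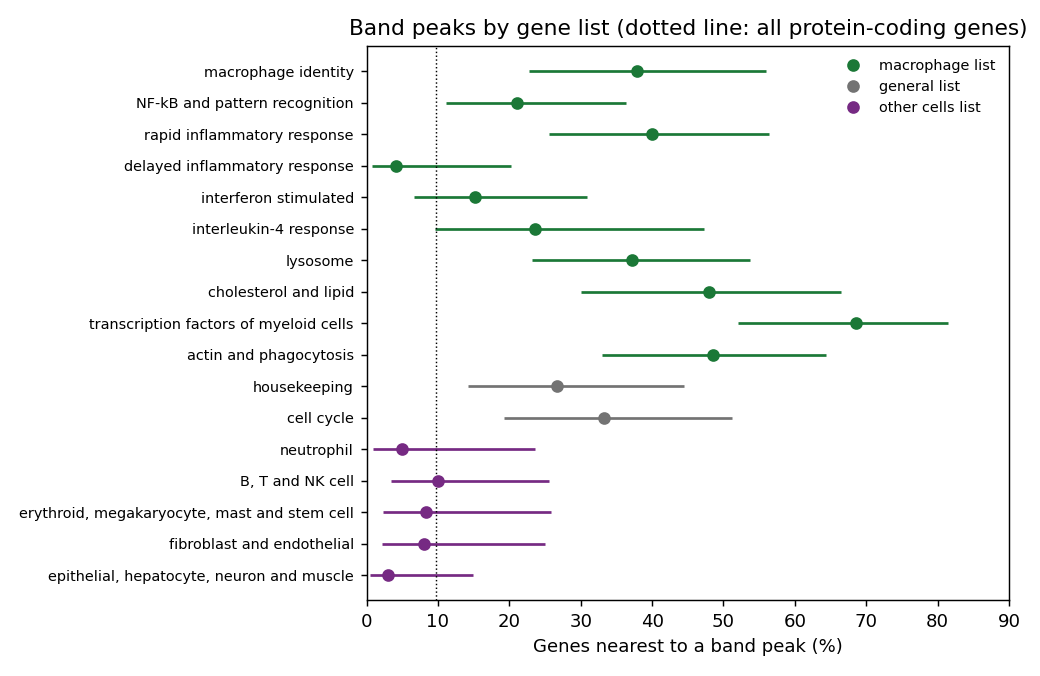
Percentage of the genes of each list that were the nearest protein-coding gene of a band peak (horizontal axis), with 95% Wilson intervals, for macrophage, general and other-cell lists. The dotted line is the share of all protein-coding genes, 9.78%, and the list of myeloid transcription factors stands highest at 68.6%.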

How the data were processed

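The deposited files are 4 narrowPeak lists on mm10 from 2 biological replicates: 1 list per replicate, and a replicated and a pooled list made by the authors from both libraries, per the notes that accompany the deposited files. Going by the narrowPeak layout, since no source used here defines the columns, the deposited fold is read as a linear ratio of signal to background, and the deposited q-value as −log10. Aligner, caller and settings are not given in the sources used here. Peaks were read as deposited and ranked by fold within a list, with the midpoint set against 54327 distinct starts of protein-coding transcripts of protein-coding genes (GENCODE M21, GRCm38 patch 6) with pandas 2.3.3 and pysam 0.24.0. Support means an overlap of at least 1 bp. Intervals are 95% Wilson intervals, cover counting error only, and treat peaks as independent. The assignment of distance, side, start and overlap was tested on simulated peaks. Genes were named by a rule: the 4 highest peaks of each side and state, the 2 highest of each list, the highest without full support, those at the limits, starts flanked on both sides without another peak, and cell markers. Some genes that the rule takes are not reported here. The band, the 17 gene lists and the rule were chosen with earlier results of these data known. Of the listed names, 3 matched no protein-coding gene used. Alternatives were other sets of starts, distances, q-values, lists, overlaps and windows, and each replicate alone. Control libraries were not analysed here.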

Additional observations from a re-analysis of the deposited data

How the results depend on the processing

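Of 55 alternative values, 17 stayed within the 95% interval of the value reported and 38 moved outside it. The pooled list moved none of the 6 summary values. With starts of every transcript of protein-coding genes, 8.59% of peaks fell in the band, 58.9% of them downstream, 51.2% with a separate peak and 77.9% supported in both replicates, at a median width of 1451 bp and percentile 59.5. With the 5′ end of each gene alone these were 7.98, 71.2, 66.7 and 82.2%, and 1383 bp. By the nearest edge they were 4.17, 54.3, 70.7 and 64.7%, 965 bp and percentile 35.9. By the summit, an alternative chosen after seeing the data, they were 5.23, 58.8 and, for support, 71.7%, with 1122 bp and percentile 46.8. Without covering peaks, also chosen after seeing the data, support was 75.9%, width 1242.5 bp and percentile 54.6. A −log10 q of at least 5 gave 83.5% support, 1640 bp and percentile 67.2. A separate peak was found for 48.4% when its midpoint had to lie within 1 kb and for 45.7% when it had to lie within 250 bp. Support was 70.9% at an overlap of 50% of both peaks and 76.9% at 50% of the band peak. In a single replicate, the share in the band ranged from 7.68 to 7.91%, downstream from 63.5 to 63.6%, with a separate peak from 58.7 to 61.2%, overlapped in that replicate from 84.5 to 86.0%, width from 1344.5 to 1442 bp and percentile from 61.7 to 62.7. Apart from the construction of each alternative, the cause was not tested. No paired analysis was possible because the samples form a single group, with no second group to share replicate numbers, and classes of peaks were only set side by side within each replicate. The read depth is unknown, so a start with no listed peak may still carry H3K27ac below the calling threshold.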
